A study of Homo sapiens with 3 samples.

Results

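The genes examined are named for the translocases that bring proteins into mitochondria. TIMM genes are those of the inner membrane and the space between the membranes, and TOMM genes those of the outer membrane. TOMM34, a member by its name, encodes a cytosolic cochaperone. Members were every row whose gene name was TIMM or TOMM followed by a number and at most 1 letter, which gave 25 of 62680 rows, 15 TIMM and 10 TOMM. They were measured by RNA-seq in HepG2 cells, a human liver carcinoma line labelled wild type, grown in serum-containing DMEM. Treatment lasted 48 h, with A740003 at 20 µM, with A438079 at the same dose, or with PBS, and each gave 1 library. Both compounds are named in the series' design as P2X7 antagonists, P2X7 being an ATP-gated cation channel, and PBS served as control. No source used here names a solvent, so an effect of a solvent and an effect common to A740003 and A438079 cannot be told apart.

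With 1 library per treatment no test across samples was possible, and no difference below has a replicate check. Total rounded counts were 19735540 with A740003, 19606723 with A438079 and 19375462 with PBS. The 8 hepatocyte markers examined, ALB, AFP and HNF4A among them, were all above 1 CPM (the count scaled to a common library size) and summed to 17994 CPM with A740003, 19432 with A438079 and 17592 with PBS. The sum joins opposite differences: ALB had 4807 CPM with A740003, 6191 with A438079 and 6456 with PBS, and APOB had 8534, 8156 and 6160 CPM in that order. Of the 4 cholangiocyte markers 3 were above 1 CPM, with KRT7 at 0, and the 4 summed to 340 CPM with A740003, 395 with A438079 and 430 with PBS; their part in the results was not tested. The endothelial markers VWF and CDH5 were at 0 in all libraries, and the fibroblast and leukocyte markers each summed to under 1 CPM, with COL1A1, COL3A1, PTPRC and CD3E at 0.

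Nearly all mitochondrial proteins are encoded in the nucleus, made in the cytosol and imported. TOM, the outer membrane complex, is the common entry: its receptors recognise the incoming protein and its barrel-shaped channel passes it through. TIM23 then moves proteins with an N-terminal targeting sequence across or into the inner membrane, TIM22 inserts carrier proteins, and small TIM chaperones escort hydrophobic proteins across the space between. Liver cells are rich in mitochondria and draw on this route throughout.

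In both antagonist libraries these genes stayed close to their PBS level. As in any bulk sample, fewer cells of a type and less RNA per cell cannot be told apart. Of the 25 members 24 reached a mean of 1 CPM, the minimum for a ratio; TOMM20L, a TOMM20 relative, had 1 count with A740003, 0 with A438079 and 2 with PBS, below the limit of 3 counts that a count of 0 allows. Across the 24, the ratio of scaled counts over PBS ran between 0.761 (TOMM40L) and 1.37 (TIMM17B) with A740003, and between 0.760 (TIMM29) and 1.23 (TOMM7) with A438079. A gene counted as called if it lay 1.5-fold or more from 1, in either direction, and its 95% counting interval excluded 1. No member was called in either comparison. Among all 12270 genes tested, 3.14% were called higher and 10.7% lower with A740003, and 1.63% higher and 9.44% lower with A438079. Genes of like transcript GC content and length shared a shift, and with that trend subtracted these shares were 3.14% and 6.18% with A740003, and 1.88% and 4.63% with A438079. Among the 9589 genes with at least 5 CPM, 1.49% were called higher and 6.95% lower with A740003, and 0.594% higher and 5.48% lower with A438079. The range of the members' ratios held 76.1% of all genes tested with A740003 and 73.7% with A438079. Among the genes with at least 5 CPM it held 84.3% and 82.2%.

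**Figure D1:**
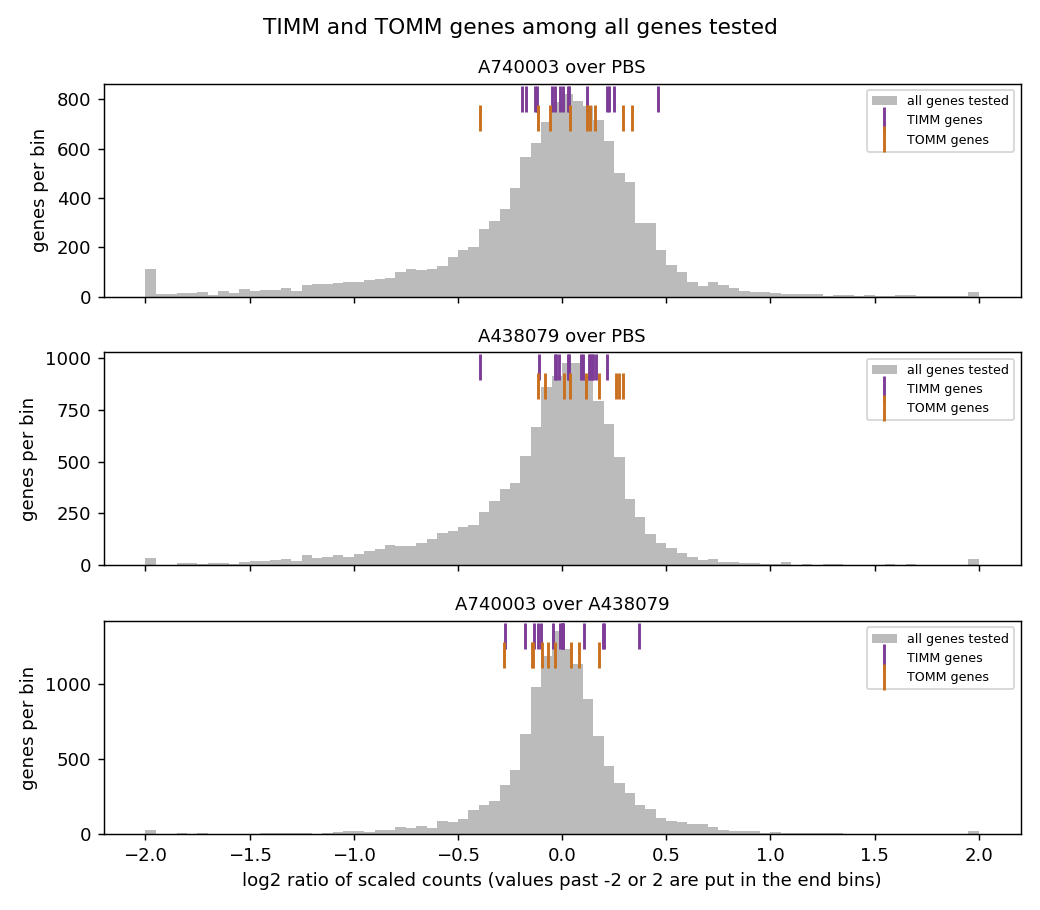
Histograms of the log2 ratio of scaled counts over all 12270 genes tested, 1 panel per comparison, with 15 TIMM genes (upper ticks) and 9 TOMM genes (lower ticks) marked. Every tick lies between -0.39 and 0.46, and all genes together have a longer tail on the low side in both comparisons with PBS.

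Past a log2 ratio of 0.32 in size, with the same interval rule, 2 members were higher (TIMM17B and TOMM7) and TOMM40L was lower with A740003, against 11.1% and 16.8% of all genes tested. With A438079 none met both conditions in either direction, against 6.01% and 15.0% of all genes tested, and TIMM29 was past 0.32 on the low side with an interval that included 1. Adjusted for GC content and length, TIMM13 was past 0.32 in both libraries, at 0.36. A counting interval above 1, at any size, was seen for 10 of 24 members with A740003 (41.7%) and an interval below 1 for 2 (8.33%), against 26.2% and 26.7% of all genes tested. With A438079 it was above 1 for 8 (33.3%) and below 1 for none, against 22.9% and 23.2%. Adjusted for GC content and length, the interval was above 1 for 7 members and below 1 for 2 with A740003. With A438079 the adjusted interval was above 1 for 11 and below 1 for 1. Shares of all genes tested were not counted for the adjusted intervals. The median member had 925 counts, averaged over libraries, against 442 for the median gene tested, and an interval narrows as counts grow. TIMM23, TIMM8B, TOMM7, TOMM20, TOMM34 and TOMM70 had intervals above 1 in both antagonist libraries, which share the PBS library. The intervals of TIMM10B, TIMM17A, TIMM21, TIMM22, TIMM23B, TIMM29, TIMM44, TIMM8A, TOMM40 and TOMM5 included 1 in both. The share of all genes tested with either of these joint patterns was not counted, so neither pattern can be called particular to the members.

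TOMM and TIMM genes differed little in their medians. The 9 TOMM genes had a median log2 ratio over PBS of 0.12 with A740003 and 0.11 with A438079. The 15 TIMM genes had medians of 0.0028 and 0.09, and all genes tested 0.00097 and -0.0036. Adjusted for GC content and length, the TOMM median was -0.0003 with A740003 and 0.12 with A438079. With A740003, 6 of the 9 TOMM genes were above 0 before adjustment and 4 after it. TOMM6, which gave the unadjusted median there, was at 0.12 both before and after. With A438079 the unadjusted TOMM median was the value of the cytosolic cochaperone gene TOMM34.

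The levels themselves spanned a wide range, and compare between genes only per length. On the authors' FPKM scale the small TOM subunits were highest. TOMM5 had 292 FPKM with A740003, 296 with A438079 and 314 with PBS. TOMM6 had 293, 265 and 280 FPKM and TOMM7 304, 277 and 260 FPKM in the same order of libraries. Their median annotated transcript lengths were 770 nt for TOMM5, 616 nt for TOMM6 and 484.5 nt for TOMM7, against 2434 nt for the median gene tested. The lengths implied by the authors' counts and FPKM in the PBS library were shorter, at 440, 303 and 166 nt. A shorter length gives a higher FPKM for the same count, so the rank of these genes depends on it. TIMM23 was the highest TIMM gene, with 153 FPKM in each antagonist library and 142 with PBS, and TOMM20 came next at 136 with A740003, 140 with A438079 and 122 with PBS. At the low end were TIMM22 (6.63, 6.45 and 6.77 FPKM with A740003, A438079 and PBS), TIMM23B (5.59, 6.04 and 5.90 FPKM) and TIMM29 (2.59, 2.88 and 3.01 FPKM). The TIM22 channel gene and its partner TIMM29 thus lay below the TIM23 channel genes TIMM23 and TIMM17A in every library.

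**Figure D2:**
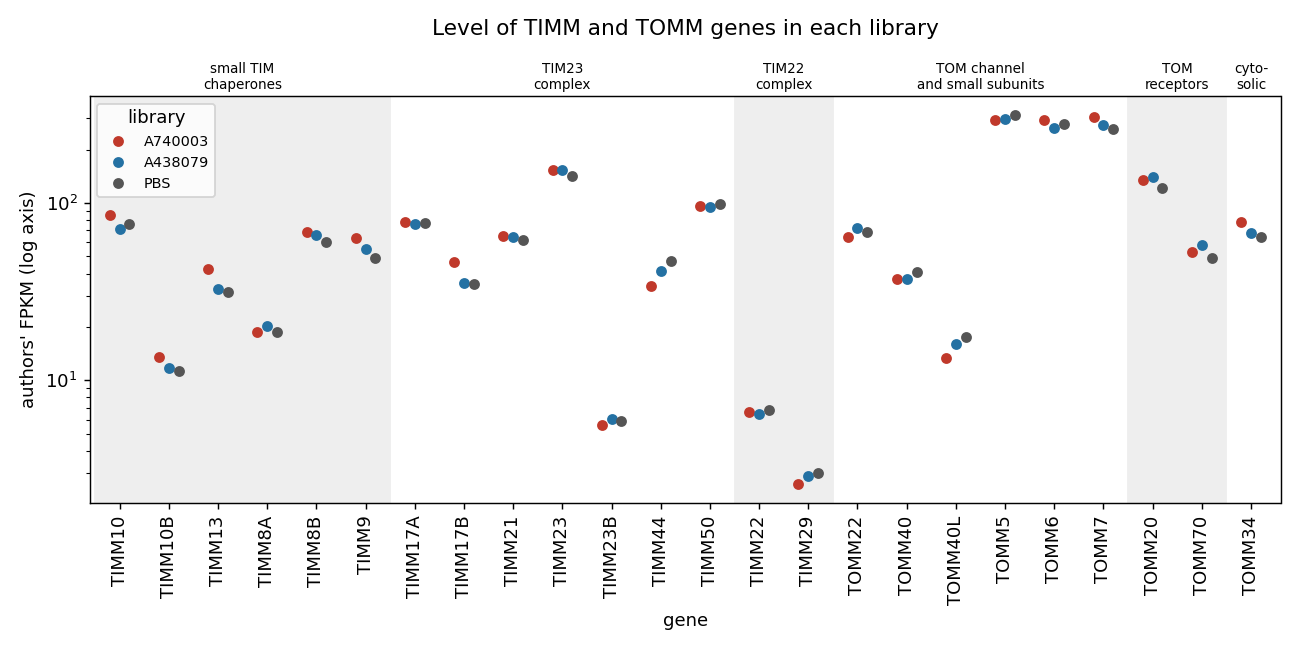
The authors' FPKM (log axis) of the 24 members tested in the A740003, A438079 and PBS libraries, 1 point per library, grouped by complex. TOMM5, TOMM6 and TOMM7 lie highest and TIMM29 lowest in all 3 libraries, and the spread between genes is far wider than the spread between libraries.

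The receptor genes TOMM20 and TOMM70 were higher in both antagonist libraries, a direction that was lost with A740003 once adjusted for GC content and length. TOMM20 (ENSG00000173726; chromosome 1, 235109336 to 235128936, minus strand, GENCODE release 29 on GRCh38), which binds N-terminal targeting sequences, had 7966 counts with A740003, 8294 with A438079 and 6953 with PBS. A740003 gave 1.12 times the PBS level (95% counting interval 1.08 to 1.15) and A438079 gave 1.20 times (1.16 to 1.23). TOMM70 (ENSG00000154174; chromosome 3, 100363431 to 100401398, minus strand, same annotation), the receptor for carrier proteins and their chaperones, had 3935 counts with A740003, 4215 with A438079 and 3500 with PBS. Its ratio over PBS was 1.10 (1.05 to 1.15) for A740003 and 1.21 (1.15 to 1.26) for A438079. Both are long, AT-rich transcripts, with a median length of 3387 nt and GC content of 41.4% for TOMM20, and 4409 nt and 42.3% for TOMM70. Adjusted for that trend, their log2 ratios over PBS were -0.0008 and -0.0545 with A740003, so the direction was lost there, and 0.12 and 0.11 with A438079.

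TOMM7 and TOMM34 were the TOMM genes furthest above PBS with A740003, and TOMM7 was also the furthest with A438079. TOMM7 (ENSG00000196683; chromosome 7, 22812628 to 22822852, minus strand, same annotation), a small subunit that modulates assembly of the TOM complex and is needed to hold the mitophagy kinase PINK1 at the outer membrane, had 1078 counts with A740003, 1020 with A438079 and 834 with PBS. Both antagonist counts were above the PBS count. The ratio over PBS was 1.26 (1.15 to 1.38) for A740003 and 1.23 (1.12 to 1.34) for A438079. Its log2 ratios were 0.31 and 0.29 once the GC and length trend was taken out. On FPKM the ratio was smaller, 1.17 with A740003 and 1.06 with A438079. TOMM34 (ENSG00000025772; chromosome 20, 44942130 to 44960486, minus strand, same annotation), a cytosolic cochaperone of Hsp70 and Hsp90, had 2654 counts with A740003, 2287 with A438079 and 2117 with PBS. Its ratio over PBS was 1.22 (1.15 to 1.30) for A740003 and 1.08 (1.02 to 1.15) for A438079. Adjusted for GC content and length, its log2 ratios were 0.31 and 0.17. TOMM34 lies over PABPC1L on the opposite strand for 16906 bases, and no source used here states whether counting used strand.

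Promoters were looked at for motifs of factors known for mitochondrial genes. RefSeq promoters on GRCh38.p14, 250 bases before to 50 after the start, were at hand for 23 of the 25 members. Each of 8 motifs was searched on both strands. The NRF1 motif with 1 free position (GCGCA, any base, GCGC) was in 5 of the 23 members (TIMM29, TOMM7, TOMM20, TOMM34 and TOMM40) and in 5.78% of all 35116 promoters. The strict NRF1 palindrome (GCGCA joined to TGCGC), which is 1 form of that pattern, was in none of the 23 and in 1.24% of all, and its part CATGCGC was in 3 and in 4.43%. The ETS core CCGGAAGT was in 6 (TIMM10, TIMM10B, TIMM29, TOMM6, TOMM20 and TOMM70) and in 4.14% of all promoters. A YY1 motif (AAGAT joined to GGCGG) was in 1 and in 1.20% of all. The same motif read from the other strand with 1 free position (CCGCCAT, any base, TT) was in 2 and in 2.14%. CCAAT was in 8 of the 23 and in 34.6% of all, and the GC box GGGCGG in 14 and in 45.0%. No test was made, and a match is a description of the letters alone. The 35116 promoters were not limited to the genes tested here, so their shares are not a background matched to the members. The stretch before the TOMM7 gene is shown because TOMM7 had the highest ratio among the TOMM genes in both libraries (chr7:22822853-22823099, minus strand, GRCh38.p14, from RefSeq). Capitals mark the NRF1 motif with 1 free position, which lies on the other strand and so reads here as its reverse complement. The part CATGCGC, at position -122 from the start, is in lower case.
TOMM7: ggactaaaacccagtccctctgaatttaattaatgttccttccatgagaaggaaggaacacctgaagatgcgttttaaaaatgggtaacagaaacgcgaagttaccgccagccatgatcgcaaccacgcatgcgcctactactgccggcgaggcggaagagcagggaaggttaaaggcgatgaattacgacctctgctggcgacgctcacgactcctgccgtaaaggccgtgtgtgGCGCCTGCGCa

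The channel gene TOMM40 was slightly below PBS in both antagonist libraries, within counting error. TOMM40, the channel protein, had 1091 counts with A740003, 1086 with A438079 and 1152 with PBS, a ratio over PBS of 0.924 (0.850 to 1.004) for A740003 and 0.944 (0.869 to 1.03) for A438079. Both intervals included 1, and adjusted for GC content and length the log2 ratios were above 0, at 0.12 and 0.20. Summing the 4 rows of TOMM40 pseudogenes with it left the ratios at 0.923 and 0.934. TOMM40L, a paralog of TOMM40 (ENSG00000158882; chromosome 1, 161225939 to 161230744, plus strand, same annotation), had 628 counts with A740003, 741 with A438079 and 805 with PBS. It was lower with A740003, at 0.761 times PBS (0.684 to 0.846), the lowest member in that library. With A438079 it stood at 0.922 times (0.834 to 1.02). Of the summed counts of TOMM40 and TOMM40L, TOMM40L held 36.5% with A740003, 40.6% with A438079 and 41.1% with PBS. The exact binomial 95% bounds were 34.25% and 38.86% for A740003, 38.30% and 42.85% for A438079, and 38.94% and 43.35% for PBS. The A740003 interval ended just short of the PBS interval, and the A438079 interval overlapped both. Such shares of counts are not scaled for length.

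Among the other TOM subunits, TOMM5 and TOMM6 were near PBS, and TOMM22 was above it with A438079. TOMM22, the central receptor that also holds the complex together, had 1658 counts with A740003, 1782 with A438079 and 1577 with PBS, a ratio over PBS of 1.03 (0.957 to 1.10) for A740003 and 1.13 (1.06 to 1.21) for A438079. Adjusted for GC content and length, TOMM22 had log2 ratios of -0.0003 with A740003 and 0.15 with A438079. The adjusted values of TOMM20 and TOMM70 with A438079 were 0.12 and 0.11. The small subunit gene TOMM5 had ratios over PBS of 0.959 (0.908 to 1.01) for A740003 and 1.006 (0.953 to 1.06) for A438079. TOMM6, another small subunit, had ratios over PBS of 1.09 (1.02 to 1.16) for A740003 and 1.03 (0.960 to 1.10) for A438079. The direction differed by scale for TOMM22 with A740003, at 0.934 on FPKM, and for TOMM5 and TOMM6 with A438079, at 0.943 and 0.945 on FPKM.

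**Figure D3:**
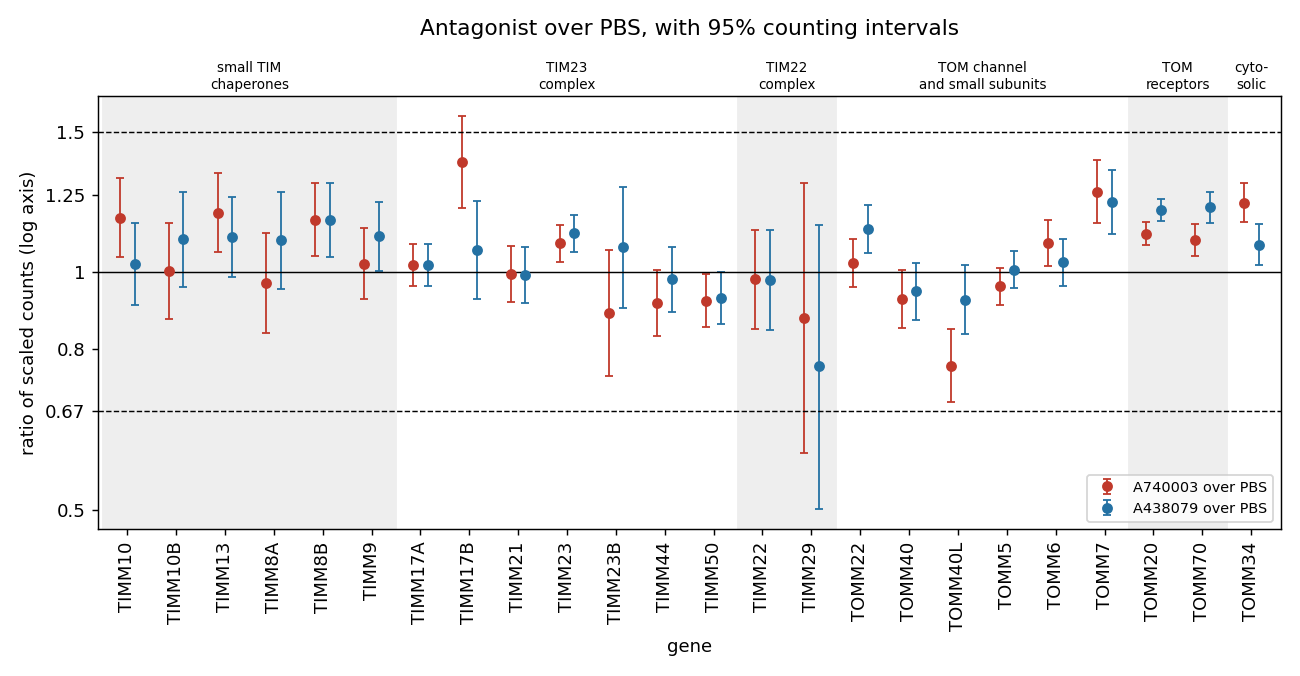
Ratio of scaled counts over PBS (log axis) for the 24 members tested, A740003 and A438079 side by side, with 95% counting intervals as bars and dashed lines at 1.5 and its inverse. TIMM17B and TOMM40L stand furthest from 1 with A740003, and no point passes a dashed line.

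Among the genes of the TIM23 complex, TIMM17B stood apart with A740003. TIMM17B (ENSG00000126768; chromosome X, 48893447 to 48898143, minus strand, same annotation) had 537 counts with A740003, 405 with A438079 and 381 with PBS, so that the A740003 library was high and the other libraries were close together. It stood at 1.37 times PBS (1.20 to 1.57) with A740003, the highest member, and at 1.07 times (0.924 to 1.23) with A438079. Its log2 ratio with A740003 was 0.46, or 0.43 once adjusted for GC content and length, and the FPKM ratio was 1.33. Its row overlaps PQBP1 on the opposite strand for 232 bases.

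TIMM17A (ENSG00000134375; chromosome 1, 201955491 to 201970661, plus strand, same annotation) encodes the paralogous subunit, which is used in separate TIM23 complexes. It had 2141 counts with A740003, 2086 with A438079 and 2050 with PBS, and both ratios over PBS were 1.02. Of the summed pair, TIMM17B held 20.1% with A740003, 16.3% with A438079 and 15.7% with PBS, with exact binomial 95% bounds of 18.6% and 21.6% for A740003, 14.8% and 17.8% for A438079, and 14.2% and 17.2% for PBS. The A740003 interval lay above both others. These are shares of counts, which are not scaled for length. On FPKM TIMM17B had 46.61 with A740003, 35.19 with A438079 and 34.97 with PBS. TIMM17A had 78.58, 75.87 and 77.05 FPKM in that order. The summed pair had ratios over PBS of 1.07 (1.02 to 1.14) for A740003 and 1.03 (0.970 to 1.09) for A438079.

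TIMM23, the channel subunit (ENSG00000265354; chromosome 10, 45972449 to 46003734, plus strand, same annotation), had 2808 counts with A740003, 2817 with A438079 and 2523 with PBS. It had ratios over PBS of 1.09 (1.03 to 1.15) for A740003 and 1.12 (1.06 to 1.18) for A438079. TIMM23B (ENSG00000204152; chromosome 10, 49942033 to 49974850, plus strand, same annotation) is a near copy of it on the same chromosome, with 229, 270 and 252 counts with A740003, A438079 and PBS. Both rows held fractional counts. Their coding sequences in GENCODE release 29 matched at 535 of 567 aligned bases (94.4%), so the split of reads between the rows is uncertain. The coding sequence of TIMM23 was 630 bases long and that of TIMM23B 567, so part of TIMM23 had no aligned counterpart. No stretch of 90 aligned bases without a gap held more differences than the first 90 from the start codon. These are given, with the 3 positions that differ in capitals.
TIMM23: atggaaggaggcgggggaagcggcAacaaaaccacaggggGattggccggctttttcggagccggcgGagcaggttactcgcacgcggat
TIMM23B: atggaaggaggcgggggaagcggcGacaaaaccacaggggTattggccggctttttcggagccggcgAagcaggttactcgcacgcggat
The longest stretch without a difference between the 2 coding sequences was 109 bases. Summed, the pair had ratios over PBS of 1.07 (1.014 to 1.12) for A740003 and 1.11 (1.06 to 1.17) for A438079.

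The remaining TIM23 genes were at or slightly below PBS. TIMM50, the receptor that hands proteins on to the TIM23 channel, had 1316 counts with A740003, 1291 with A438079 and 1396 with PBS, a ratio over PBS of 0.919 (0.852 to 0.992) for A740003 and 0.927 (0.858 to 1.0001) for A438079. TIMM44, which anchors the import motor on the matrix side, had 841, 877 and 898 counts in that order of libraries and had ratios over PBS of 0.913 (0.830 to 1.005) for A740003 and 0.978 (0.890 to 1.08) for A438079. Adjusted for GC content and length, the log2 ratios of TIMM44 were above 0, at 0.04 and 0.19. TIMM21, which links TIM23 to TOM and to respiratory chain assembly, had ratios over PBS of 0.994 (0.916 to 1.08) for A740003 and 0.990 (0.912 to 1.07) for A438079, and adjusted log2 ratios of -0.14 in both.

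The TIM22 genes gave no difference that could be detected at this depth. TIMM22, the channel of the carrier route, had 382 counts with A740003, 371 with A438079 and 381 with PBS, and its ratios over PBS were 0.978 (0.846 to 1.13) for A740003 and 0.976 (0.843 to 1.13) for A438079. TIMM29, which ties TIM22 to TOM, had 52, 44 and 58 counts, the fewest of the members tested. Its intervals over PBS ran from 0.590 to 1.29 with A740003 and from 0.502 to 1.14 with A438079. Its ratio over PBS with A438079 was 0.760 on scaled counts and 0.957 on FPKM.

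Of the 6 small TIM chaperone genes, 5 lay above PBS with A740003 and 6 with A438079, as did 50.2% and 49.5% of all genes tested, with median log2 ratios of 0.13 and 0.14 and of 0.12 and 0.14 once adjusted for GC content and length. TIMM8B, a human relative of the yeast Tim8 chaperone, had 770 counts with A740003, 749 with A438079 and 646 with PBS. It had ratios over PBS of 1.16 (1.05 to 1.29) for A740003 and 1.16 (1.04 to 1.29) for A438079. Its row overlaps NKAPD1 for 351 bases and SDHD for 26, both on the opposite strand. TIMM13, the partner of TIMM8A in a chaperone ring, had 672 counts with A740003, 609 with A438079 and 552 with PBS, a ratio over PBS of 1.19 (1.06 to 1.33) for A740003 and 1.11 (0.983 to 1.24) for A438079. Adjusted for GC content and length, its log2 ratio was 0.36 in both libraries, against 0.25 with A740003 and 0.14 with A438079 unadjusted.

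TIMM9 and TIMM10 form the other chaperone ring, which serves the carrier route, and TIMM10B binds it to TIM22. TIMM10 had 662 counts with A740003, 563 with A438079 and 552 with PBS, a ratio over PBS of 1.17 (1.04 to 1.31) for A740003 and 1.02 (0.907 to 1.15) for A438079. TIMM9 had 777 counts with A740003, 819 with A438079 and 740 with PBS, a ratio over PBS of 1.02 (0.925 to 1.13) for A740003 and 1.11 (1.003 to 1.23) for A438079. Between the antagonists the TIMM9 interval included 1, and the direction turned with the scale, at 0.924 on counts and 1.15 on FPKM. TIMM10B had ratios over PBS of 1.002 (0.871 to 1.15) for A740003 and 1.10 (0.958 to 1.26) for A438079. TIMM8A, the paralog of TIMM8B whose loss causes a human deafness and dystonia syndrome, had ratios over PBS of 0.968 (0.838 to 1.12) for A740003 and 1.10 (0.952 to 1.26) for A438079.

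Counts and FPKM parted for some small TIM genes. In the A740003 library over PBS, the ratio of TIMM9 was 1.02 on scaled counts and 1.29 on FPKM, that of TIMM13 1.19 and 1.35, and that of TIMM10B 1.002 and 1.20. For TIMM44 it was 0.913 on counts and 0.729 on FPKM. A length can be computed from the authors' pair of values, as counts divided by FPKM and by library total. For TIMM9 it was 624 nt with A740003, 760 nt with A438079 and 779 nt with PBS. For TIMM13 it was 803, 947 and 910 nt, and for TIMM44 it was 1245, 1078 and 987 nt, in the same order of libraries. The median over all genes tested of the A740003 length over the PBS length was 1.010, while TIMM9, TIMM13 and TIMM10B were at 0.801, 0.882 and 0.840 and TIMM44 at 1.26. The transcripts behind these lengths cannot be read from tables with 1 row per gene.

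**Figure D4:**
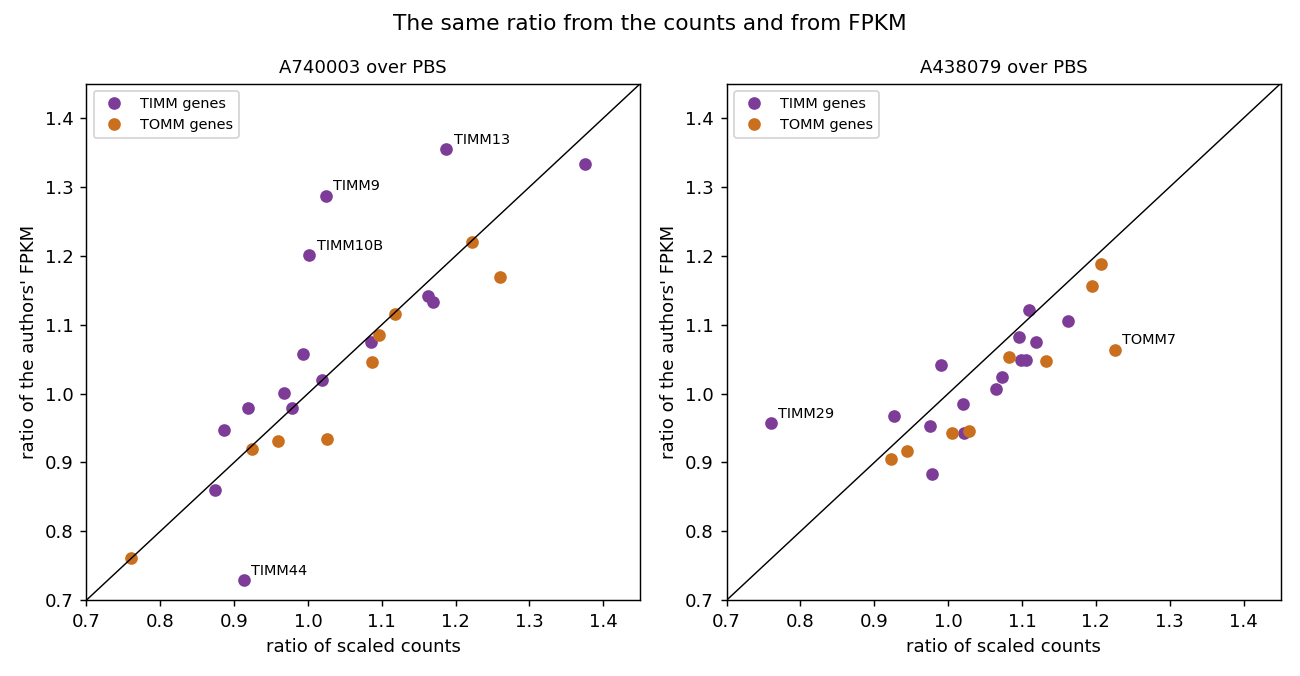
Ratio of scaled counts (x) against ratio of the authors' FPKM (y) for the 24 members tested, A740003 over PBS on the left and A438079 over PBS on the right, with the line of equal ratios. TIMM9, TIMM10B and TIMM13 lie above the line and TIMM44 below it with A740003. With A438079 TIMM29 lies above the line and TOMM7 below it. Most other points are close to the line.

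A740003 and A438079, given at equal dose for equal time, were also compared directly. No member was called at 1.5 (2.44% of all genes tested were called higher and 2.81% lower with A740003 than with A438079, and 2.43% and 1.79% past 1.5 on FPKM with a pseudocount of 1). A counting interval above 1 was seen for 3 members (15.6% of all genes tested) and below 1 for 5 (17.3%). TIMM17B was higher with A740003, at 1.29 times its A438079 level (1.13 to 1.47), the only member past a log2 ratio of 0.32 (5.67% of all genes tested were past it higher and 5.96% lower), and TIMM10 and TOMM34 were higher too, at 1.14 times (1.02 to 1.28) and 1.13 times (1.07 to 1.20) their A438079 levels. TIMM23B, TOMM40L, TOMM22, TOMM70 and TOMM20 were lower with A740003, at 0.826 (0.689 to 0.988), 0.825 (0.741 to 0.919), 0.906 (0.847 to 0.969), 0.909 (0.870 to 0.949) and 0.935 (0.907 to 0.964) times their A438079 levels. Summed with TIMM23, the TIMM23B locus stood at 0.958 (0.911 to 1.007), an interval that included 1. For the other 16 members the interval included 1, which does not show that the compounds act alike; the ratio of TIMM17A was 0.999 (0.940 to 1.06) and that of TIMM50 0.992 (0.918 to 1.07), while that of TIMM29 could lie anywhere between 0.755 and 1.76.

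Partners of the translocases outside the TIMM and TOMM names were examined as 28 genes, all with at least 1 CPM. In this list 2 genes were called higher with A740003 (3.14% of all genes tested) and 1 with A438079 (1.63%), and none lower (10.7% and 9.44%). ROMO1, a small inner membrane protein found with TIM23, had 1331 counts with A740003, 1199 with A438079 and 776 with PBS, and both antagonist counts were well above the PBS count. It had ratios over PBS of 1.67 (1.53 to 1.83) for A740003 and 1.55 (1.41 to 1.70) for A438079. Its counts were whole in all libraries. Taking out the GC and length trend left log2 ratios of 0.60 and 0.62. The FPKM ratio was 1.52 with A740003 and 1.30 with A438079. PAM16, a regulator of the import motor with fractional counts, had 180 counts with A740003, 139 with A438079 and 117 with PBS, a ratio of 1.501 (1.18 to 1.91) with A740003. That ratio sat at the threshold, and the call was lost on FPKM, at 1.44, and on adjustment for GC content and length, at a log2 ratio of 0.50.

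IMMP1L, a subunit of the inner membrane peptidase, was among the highest with A438079, at 1.22 times PBS (0.984 to 1.53), an interval that included 1, and at 1.78 times on FPKM. The lowest partners on counts in both libraries were DNAJC11, a protein of the sorting and assembly machinery, at 0.783 times PBS with A740003 and 0.823 with A438079, and XPNPEP3, a mitochondrial peptidase, at 0.797 and 0.719 times. On FPKM XPNPEP3 was near PBS, at 1.03 times with A740003 and 0.969 with A438079. Between the antagonists, GFER, the oxidase that recharges the intermembrane space import relay, was higher with A740003 at 1.27 times its A438079 level (1.09 to 1.48), as was PAM16 at 1.26 times (1.005 to 1.58). MTX2, of the outer membrane sorting machinery, and HSPE1, the matrix chaperonin partner, were the lowest there, at 0.874 and 0.900 times. The median log2 ratio of the 28 partners was 0.12 with A740003 and 0.11 with A438079, or 0.05 and 0.06 adjusted for GC content and length. Beside them, 78 mitochondrial ribosomal protein genes had medians of -0.05 and -0.02, with 1 called higher with A740003, 0 with A438079 and 0 lower in either, next to the same shares of all genes. The 38 complex I subunit genes had medians of 0.18 and 0.10, with 2 called higher with A740003, 1 with A438079 and 0 lower in either. Their medians were 0.19 and 0.12 adjusted for GC content and length, and 0.17 and -0.005 on FPKM. No test of these lists against each other was made.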

How the data were processed

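Total RNA was extracted with an RNeasy kit and made into libraries with a SMARTer mRNA kit, per the labels' protocols. The authors deposited expected counts per gene, estimates that need not be whole, and FPKM per gene, scaled by them for length and library size. No source used here names the aligner, counter, annotation or use of strand. The submitters' processing notes name GRCm38, a mouse build, although the gene identifiers are human, so coordinates and transcript lengths were taken from GENCODE release 29 (GRCh38) by identifier. Value columns were matched to samples by the letter in each sample's label.

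Expected counts were rounded and scaled with TMM (edgeR 4.0.16, R 4.3.3). Log2 ratios used a pseudocount of 0.5 counts. Intervals of a ratio are exact conditional binomial (Clopper-Pearson) at 95%, and cover counting error only, as do the limits for a count of 0. The design assumed counts, and the same steps were used on the rounded estimates. The 116 rows without an Ensembl identifier held 0.0791%, 0.0775% and 0.0853% of counts with A740003, A438079 and PBS and stayed in the totals. The GC and length trend was removed by subtracting the median log2 ratio of the 201 genes nearest in rank, possible for 11906 of the 12270 genes tested (97.0%) and all 24 members tested. Members and gene lists were chosen with earlier results of these data known. All members are named, as are the 2 highest and 2 lowest partner genes of each comparison with at least 5 CPM. The motifs and the counts of intervals that exclude 1 were chosen after values were seen. The ratio, interval and call steps were run on simulated counts with counting error alone, known library sizes and a fold of 1.25. Trend removal was run on simulated log2 ratios. TMM scaling and variation between libraries were not part of that check. Alternatives tried were scaling by totals, by upper quartile or by DESeq2 1.42.0, other filters and folds, FPKM with pseudocounts of 0.1 and 1, unrounded counts, summed rows that share reads, and members with whole counts alone.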

Additional observations from a re-analysis of the deposited data

How the results depend on the processing

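No member was called at 1.5 under any scaling, filter, summing or FPKM alternative run. The number of members past a log2 ratio of 0.32 in size with an interval that excluded 1 was 3 with A740003 over PBS, 0 with A438079 over PBS and 1 between the antagonists. With the GC and length trend removed, the TOMM median with A740003 over PBS was -0.0003 instead of 0.12, and the log2 ratios of TOMM20 and TOMM70 there were -0.0008 and -0.0545, the only values whose interval excluded 1 that changed direction in any alternative run. With the 11 members of whole counts alone, the number of intervals that excluded 1 was 5 with A740003 over PBS, 4 with A438079 over PBS and 5 between the antagonists, instead of 12, 8 and 8, since fewer members were counted, and the TOMM median with A438079 over PBS was 0.22 over 4 genes. Of 747 single values recomputed, 702 stayed within the counting interval of the reported value and 43 left it (32 on FPKM). The other 2, whose interval excluded 1, changed direction. A change of sign was counted only where the interval excluded 1. Further values that changed sign are among the 702 and the 43. TOMM40 with A740003 over PBS, for 1, was at -0.11, and at 0.12 with the GC and length trend removed. The 702 include values that could not change. The looser filter (72 values), the 5 CPM filter (69) and whole counts alone (33) leave each single ratio as it was. Summing rows that share reads (69) altered only TIMM23 and TOMM40. No paired analysis was possible because each treatment had 1 library, and for the same reason no replicate could be left out. Depth limits TIMM29 and TOMM20L most.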

Other observations

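In GENCODE release 29, 12 of the 25 members overlap another gene that was tested, on either strand, and their reads in the overlap may be counted for either gene. TIMM23B lies over PARG on the opposite strand for 28171 bases. On the same strand, TIMM13 overlaps LMNB2 for 257 bases. There too, TOMM6 and TOMM5 overlap unnamed protein-coding genes that were tested, for 2237 and 9824 bases. TIMM9 and TOMM20L are neighbours on chromosome 14 whose annotated ends overlap by 208 bases on opposite strands, yet TOMM20L had at most 2 counts in a library while TIMM9 had 740 to 819. TIMM23B shares 2088 bases with the readthrough row TIMM23B-AGAP6, which had 307 counts with A740003, 282 with A438079 and 307 with PBS.

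TIMM8A and TIMM8B, paralogs on chromosomes X and 11, had overlapping shares of counts, which are not scaled for length. TIMM8A held 33.2% of the pair with A740003, 36.0% with A438079 and 37.4% with PBS, with exact binomial 95% bounds of 30.5% and 36.0%, 33.3% and 38.9%, and 34.4% and 40.4% in that order of libraries. Across the 24 members tested, Spearman's rho between transcript GC content and the log2 ratio over PBS was -0.13 with A740003 and -0.50 with A438079; over the 11906 genes with values it was -0.38 and -0.47. These describe genes of the same libraries, which are not independent.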
